A study of Mus musculus with 10 samples.

Results

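The genes described here encode growth factors that endothelial cells can send to hepatocytes and blood cells, with 2 of their receptors. They were selected by gene symbol, with earlier results of these data known: Hgf, Kitl, Csf1, Csf2, Csf3, Thpo, Lif and Flt3l as ligands, and Met and Kit as receptors. Of these 10 genes, 9 were found among the 23111 genes with a symbol on the array, and Thpo was not analysed here. Levels were measured on Affymetrix arrays in total RNA of bEnd3 cells, a mouse brain endothelial line immortalised with the polyoma middle T antigen. In 5 samples the cells carried a lentivirus in which the EF1 alpha promoter drives a codon-optimized mouse Gata4 cDNA followed by IRES, mCherry and a puromycin resistance gene. In the other 5 samples (empty vector, EV) the virus carried IRES, mCherry and the resistance gene without Gata4. Both groups were selected with 2 μg/ml puromycin and share the cell line, the virus backbone and the selection. The titles number 5 biological replicates per group without saying if each had a transduction of its own. The p-values therefore cover only the spread among these samples, which may be technical. The study's title places GATA4 in the differentiation of organ-specific endothelium, in liver development and in embryonic blood formation, and the comparison asks which of these signals differ when Gata4 is added to endothelium of another organ.

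As background, HGF is a growth factor for hepatocytes that is secreted as an inactive precursor, cut by serine proteases and bound by the receptor kinase MET. KIT ligand, also called stem cell factor, and FLT3 ligand act on blood stem and progenitor cells through the receptor kinases KIT and FLT3. CSF1, CSF2 and CSF3 drive the formation of macrophages and granulocytes, and LIF signals through a pair of LIFR and IL6ST. In the liver, endothelial cells and stellate cells are known sources of several of these factors, and GATA4 is a zinc finger factor of liver sinusoidal endothelium that binds the letters GATA in DNA.

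Promoter sequences are shown first because GATA4 binds DNA and because they let the genes be compared by letters as well as by level. Windows of 300 bases, 250 before and 50 after an annotated start, came from RefSeq (GRCm38.p6). They covered 8 of the 9 measured genes in 10 windows, since Hgf and Kit each have 2. Each was searched on both strands for the letters GATA with A or T before them and A or G after them, which makes 8 possible strings of 6 bases counting both strands. Of all 32851 windows in the table, 29.8% held at least 1 match. Among the windows of these genes 2 held one: that of Hgf at its first start, 34 bases before the start, and that of Csf2, 247 bases before it. The windows of Met, Kitl, Kit, Csf1, Lif and Flt3l held none of these letters. Below, capitals mark the matches. Hgf is the gene with the largest rise, Csf2 is a gene with a match that did not pass the test, Kitl fell and has no match, and the inner start of Lifr, the LIF receptor gene, was picked because it holds 2 matches. The other Lifr window held none, and 2 of the 7 windows of the receptor chains held a match, a share near that of all windows.
Hgf, first start, chr5:16553245-16553544, + strand: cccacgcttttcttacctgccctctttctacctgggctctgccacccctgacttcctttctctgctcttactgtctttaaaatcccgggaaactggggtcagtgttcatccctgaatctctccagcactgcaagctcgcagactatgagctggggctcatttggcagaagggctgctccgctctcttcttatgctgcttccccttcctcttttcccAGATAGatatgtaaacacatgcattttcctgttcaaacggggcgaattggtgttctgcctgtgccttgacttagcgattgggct
Csf2, chr11:54249850-54250149, - strand: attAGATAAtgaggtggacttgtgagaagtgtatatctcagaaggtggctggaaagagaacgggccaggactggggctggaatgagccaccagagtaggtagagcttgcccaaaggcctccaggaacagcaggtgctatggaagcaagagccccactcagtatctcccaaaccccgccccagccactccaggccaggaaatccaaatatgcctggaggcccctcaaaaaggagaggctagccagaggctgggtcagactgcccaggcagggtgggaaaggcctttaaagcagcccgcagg
Kitl, chr10:100015571-100015870, + strand: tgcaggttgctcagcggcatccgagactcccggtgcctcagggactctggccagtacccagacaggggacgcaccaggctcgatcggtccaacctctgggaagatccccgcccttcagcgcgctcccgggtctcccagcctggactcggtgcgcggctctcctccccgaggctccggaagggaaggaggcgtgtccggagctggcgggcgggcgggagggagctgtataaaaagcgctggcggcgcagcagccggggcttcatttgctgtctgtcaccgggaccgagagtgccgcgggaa
Lifr, inner start, chr15:7140292-7140591, + strand: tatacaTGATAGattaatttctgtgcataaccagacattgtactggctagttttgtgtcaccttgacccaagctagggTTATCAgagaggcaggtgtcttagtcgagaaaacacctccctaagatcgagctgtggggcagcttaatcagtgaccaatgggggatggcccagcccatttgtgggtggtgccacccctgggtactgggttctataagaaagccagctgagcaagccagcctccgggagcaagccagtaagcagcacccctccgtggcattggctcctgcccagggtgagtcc
The windows differ in composition as well. Over all windows the median share of G or C was 52.7%. It was 75.7% for Met and 68.7% for Kitl, which fell, 58.7% for Csf1, 54.3% for Flt3l and 51.3% in both windows of Hgf, which rose, and 69% for Kit, 63.7% for Lif and 56.7% for Csf2, which did not pass. High shares occurred among rises too. Of the receptor chain genes that rose, Lifr had 81.3% at its other start and 53.3% at the inner one. The share was 68.3% for Il6st, 65.3% for Csf2ra and 55% for Csf2rb2, which also rose. A match is a description of letters and shows no binding.

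Of the 9 measured genes, 3 rose, 2 fell and 4 did not pass the test (limma, adjusted p under 0.05). The ligand genes Hgf, Flt3l and Csf1 rose, and the ligand gene Kitl and the receptor gene Met fell. Over all genes tested 25.6% passed, 12.4% as higher and 13.2% as lower, and 21.1% had groups with no overlap in their values. The latter held for 5 of the 9 genes, the same 5 that passed. With a minimum of 1.5-fold added, 2 of the 9 were higher and 2 lower, where 7.39% of all genes passed. The median log2 change over the 9 genes was 0.04, against -0.01 over all genes. The shares over all genes cover dim genes too: 50.3% had an empty-vector mean under the median value of 4.16. Such shares are not a like background for a list of brighter genes. Levels below are log2 values after RMA (robust multi-array averaging), and in bulk RNA fewer cells with a transcript and less transcript per cell cannot be told apart. The table carries no detection call, so a mean near the low end of the scale may be background and a fold against it can be understated.

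**Figure D1:**
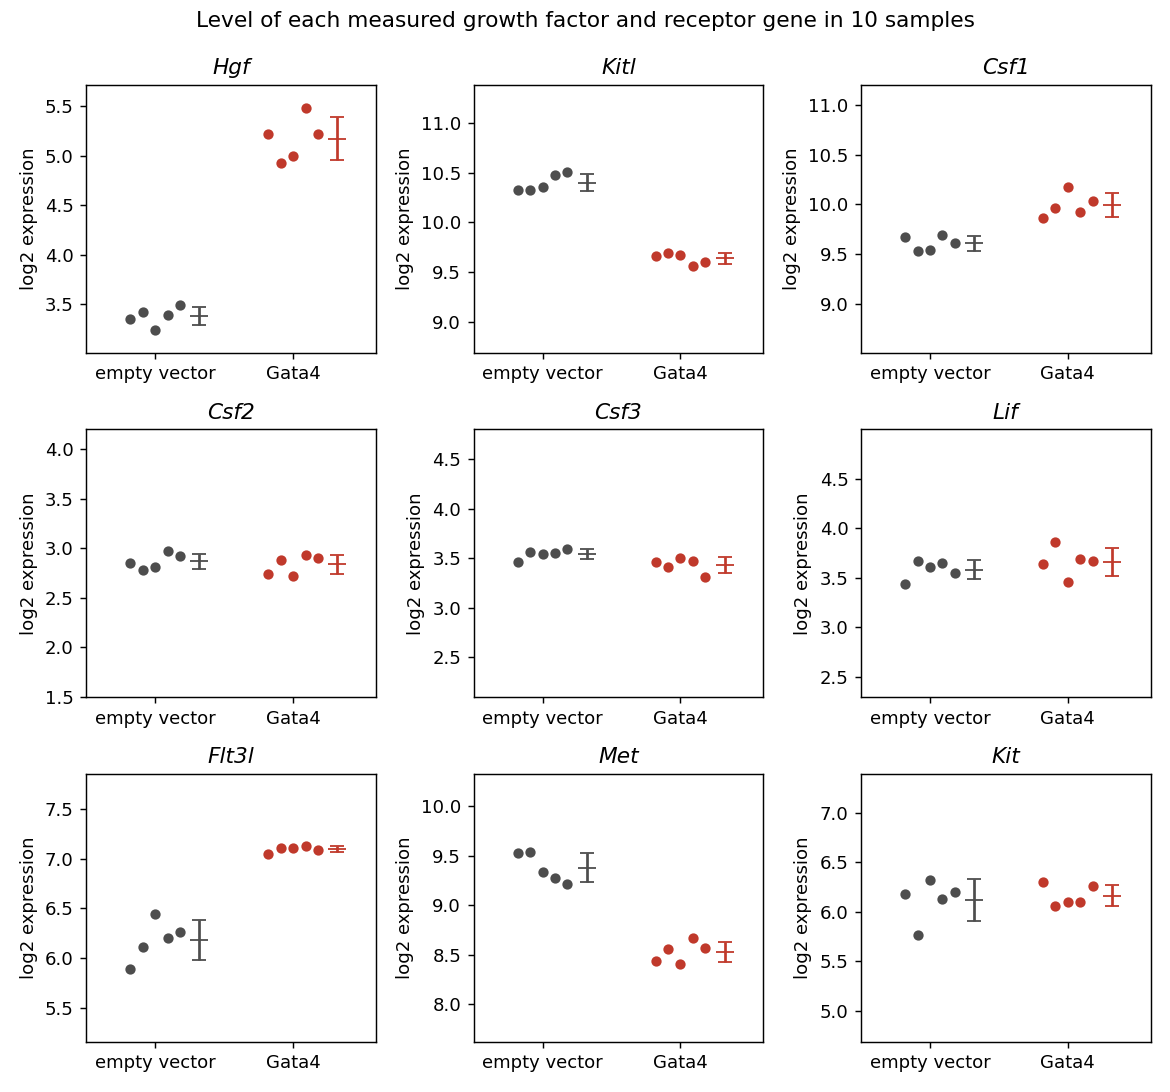
Log2 expression of each of the 9 measured genes in the 5 empty-vector samples (grey) and the 5 Gata4 samples (red), replicates from left to right, with mean and SD at the right of each group. The panels span the same number of log2 units. The groups are apart for Hgf, Kitl, Csf1, Flt3l and Met and overlap for the other genes.

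Hgf, which encodes hepatocyte growth factor, stood at 5.22, 4.93, 4.999, 5.48 and 5.22 in Gata4 replicates 1 to 5. In the empty-vector samples its values were 3.35, 3.42, 3.25, 3.39 and 3.49. Every Gata4 sample lay above every empty-vector sample by more than 1 log2 unit, and the Gata4 samples varied more among themselves (SD 0.22) than the empty-vector samples (SD 0.09). The change was 1.79 ± 0.09 (SE, limma, adjusted p = 1.6e-08), or 3.46-fold with a 95% interval of 3.00 to 3.98. The empty-vector mean of 3.38 ± 0.09 (SD, n = 5) lay at percentile 35.0 of all genes and may be background. In the Gata4 samples the mean of 5.17 ± 0.22 (SD, n = 5) lay at percentile 57.3.

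Met encodes the receptor of HGF and moved the other way. Its levels were 8.44, 8.56, 8.41, 8.67 and 8.57 in the Gata4 samples and 9.53, 9.54, 9.33, 9.28 and 9.21 in the empty-vector samples. The groups did not overlap, and empty-vector replicates 1 and 2 were the highest of all. Met fell by 0.85 ± 0.08 (SE, limma, adjusted p = 2.6e-06), which is 1.80-fold with a 95% interval of 1.61 to 2.02. Both means, 9.38 ± 0.15 and 8.53 ± 0.10 (SD, n = 5), were well inside the upper part of the scale.

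Genes that process pro-HGF changed in both directions. Of 12 measured, 4 were higher, 1 lower and 7 did not pass, with a median log2 change of 0.14. The called share was 41.7%, against 25.6% of all genes. Without Gata4 replicate 5 the count of higher genes was 3, because Hgfac, which encodes the HGF activator protease, no longer passed (log2 change 0.28, adjusted p = 0.059). The count was also 3 without empty-vector replicates 1 and 2, where Hgfac had a log2 change of 0.19 (adjusted p = 0.086). Plat, which encodes tissue plasminogen activator, rose 8.11-fold from 7.69 ± 0.19 to 10.71 ± 0.07 (SD, n = 5). Plau, which encodes urokinase, a protease that cuts pro-HGF in vitro, was 3.93-fold lower and went from 12.04 ± 0.09 to 10.06 ± 0.12. Spint2, which encodes an inhibitor of HGF-activating proteases, rose 2.90-fold, with Gata4 samples between 9.12 and 9.38 and empty-vector samples between 7.43 and 8.04. St14, the matriptase gene, had means of 3.58 and 4.01 that may be background, and rose by 0.43 ± 0.09 (SE, limma, adjusted p = 0.0036).

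Kitl, which encodes KIT ligand, was lower in the Gata4 samples. Its values there were 9.66, 9.69, 9.67, 9.56 and 9.60, against 10.33, 10.32, 10.36, 10.48 and 10.51 in the empty-vector samples. Each group was tight and the groups lay more than 0.6 log2 units apart. Kitl fell by 0.76 ± 0.05 (SE, limma, adjusted p = 2.4e-07), or 1.70-fold with a 95% interval of 1.57 to 1.84. Kit, its receptor, stood at 6.30, 6.06, 6.09, 6.10 and 6.25 in the Gata4 samples and at 6.18, 5.76, 6.32, 6.13 and 6.20 in the empty-vector samples. These values were interleaved, with a log2 change of 0.04 and a 95% interval of -0.16 to 0.25 (limma, adjusted p = 0.83). Without empty-vector replicates 1 and 2 the change of Kit was -0.06, so its sign was not settled. In the RefSeq gene order Kit lies between Pdgfra and Kdr, the genes of a PDGF receptor and a VEGF receptor. Both of these neighbours fell, by 1.01 ± 0.15 and 1.18 ± 0.05 (SE).

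Of 8 genes of proteases that can release membrane-bound ligands from the cell surface, 0 were higher and 2 lower by limma. This share of 25% was near the 25.6% of all genes, and the median log2 change was 0.01. At an unadjusted p under 0.05, 1 was higher and 2 lower, and an exact rank-sum test called 0 higher and 2 lower. Among genes above the median level, with fewer genes tested, 1 was called higher, as it was without Gata4 replicate 3: Mmp14, a membrane-type matrix metalloproteinase gene, named here after its values were seen (log2 changes of 0.15 and 0.19, adjusted p = 0.040 and 0.015). Adam8 was 8.76-fold lower, from 7.15 ± 0.21 to 4.02 ± 0.16 (SD, n = 5), where the lower mean may be background. Adam9 fell by 0.35 ± 0.07 (SE).

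Flt3l, which encodes FLT3 ligand, was higher in the Gata4 samples. Its 5 Gata4 values, 7.05, 7.11, 7.10, 7.13 and 7.09, were nearly equal, whereas the empty-vector values of 5.89, 6.11, 6.44, 6.20 and 6.26 were spread over more than 0.5 log2 units. The groups did not overlap. The rise was 0.92 ± 0.08 (SE, limma, adjusted p = 3.2e-06), or 1.89-fold with a 95% interval of 1.66 to 2.14. Flt3, the receptor, had low means of 3.41 ± 0.25 in the empty-vector samples and 3.31 ± 0.07 in the Gata4 samples (SD, n = 5) and did not pass (log2 change -0.10, limma, adjusted p = 0.58).

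Csf1, the gene of macrophage colony-stimulating factor, rose by the smallest amount of the called genes. Its levels were 9.86, 9.96, 10.18, 9.93 and 10.03 in the Gata4 samples and 9.67, 9.53, 9.54, 9.69 and 9.61 in the empty-vector samples. The groups did not overlap, and the gap between the lowest Gata4 and the highest empty-vector sample was under 0.2 log2 units. The change was 0.38 ± 0.06 (SE, limma, adjusted p = 6.0e-04), or 1.30-fold with a 95% interval of 1.18 to 1.44. Il34, the gene of the other ligand of the CSF1 receptor, had means of 3.24 and 3.26 and did not pass (adjusted p = 0.89). The receptor gene Csf1r had means of 3.65 ± 0.21 and 3.84 ± 0.09 (SD, n = 5), and its log2 change of 0.20 missed the threshold (limma, adjusted p = 0.15). Among the alternatives run it passed in 1, without empty-vector replicate 2 (log2 change 0.26, adjusted p = 0.039).

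The remaining ligand genes Csf2, Csf3 and Lif had low values in all 10 samples. Csf2, which encodes the granulocyte-macrophage factor, ranged from 2.72 to 2.93 in the Gata4 samples and from 2.78 to 2.97 in the empty-vector samples. Csf3, which encodes the granulocyte factor, ranged from 3.31 to 3.50 and from 3.46 to 3.59. Lif ranged from 3.45 to 3.86 and from 3.43 to 3.67. These ranges overlapped for each gene and lay under the median of all features, 4.16, so a change of such transcripts may not be measurable here. The log2 changes were -0.03 for Csf2, with a 95% interval of -0.16 to 0.10, -0.11 for Csf3 (-0.22 to 0.00052) and 0.08 for Lif (-0.08 to 0.24). For Csf3 an exact permutation test (two-sided, all ways of assigning 5 samples to each group) gave an unadjusted p of 0.032, while limma's adjusted p over all genes was 0.15. The same permutation test gave 0.0079, the smallest p it can give, for each of the 5 called genes. Csf2 and Lif lie beside related cytokine genes, Il3 and Osm, whose log2 changes of 0.08 and 0.11 did not pass either (adjusted p = 0.35 and 0.093).

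**Figure D2:**
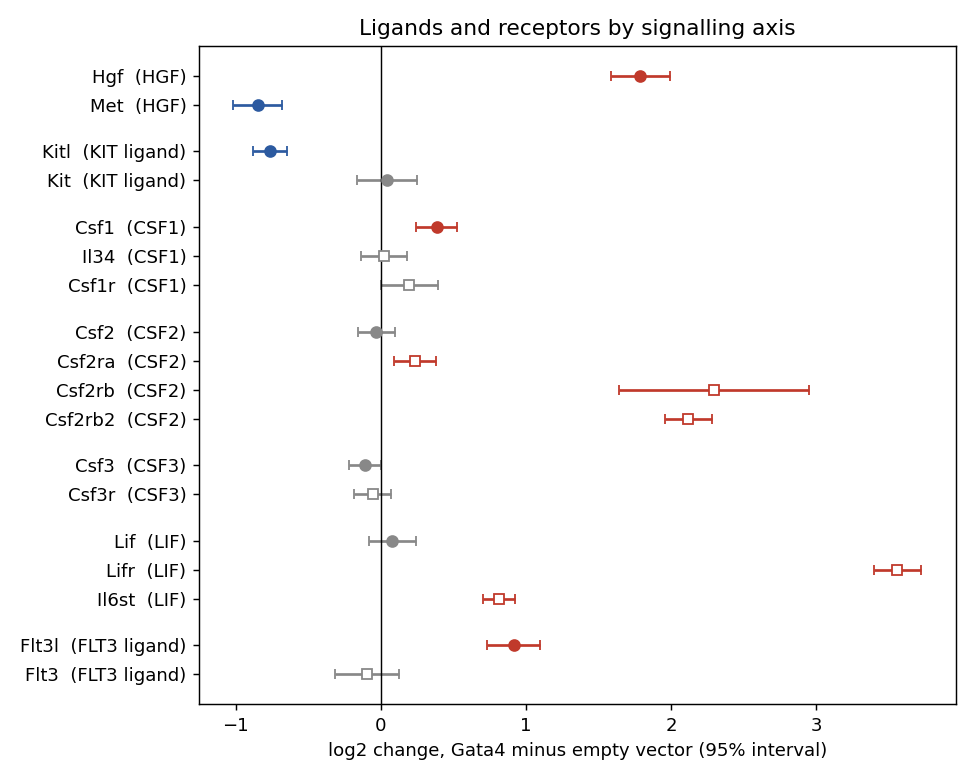
Log2 change (Gata4 minus empty vector) with its 95% interval, grouped by signalling axis. Filled circles are the 9 genes and open squares are 9 receptor chains or second ligands. Csf2rb2 is drawn on the CSF2 axis, although in the mouse it encodes a beta chain specific to the IL-3 receptor. Red marks genes called higher, blue lower and grey not called; Lifr has the largest change at 3.56, while its ligand gene Lif is near 0.

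Several receptor chains that complete these ligand pairs, or that belong to the IL-3 receptor, rose, with Lifr first. Of 9 measured receptor chains and second ligands, 5 were higher and 0 lower (55.6% called by limma, against 25.6% of all genes). The 5 include Csf2rb2, whose product is specific to the IL-3 receptor and completes no pair of the ligands listed here. The median log2 change of the 9 was 0.24. The exact rank-sum test gave 5 higher and 0 lower, but with these sample sizes it called only genes whose groups did not overlap. At an unadjusted p under 0.05, which cannot give fewer calls than the adjusted p, 5 were higher and 0 lower. Lifr, the specific chain of the LIF receptor, stood at 9.58, 9.76, 9.61, 9.47 and 9.58 in the Gata4 samples and at 5.88, 5.96, 5.99, 6.24 and 6.14 in the empty-vector samples. No other gene of these pairs differed by as much: the groups lay more than 3 log2 units apart. The change of 3.56 ± 0.08 (SE, limma, adjusted p = 4.3e-12) is 11.8-fold, with a 95% interval of 10.5 to 13.2. Il6st, which encodes the gp130 chain shared by receptors of the IL-6 family, rose 1.76-fold from 10.34 ± 0.07 to 11.15 ± 0.06 (SD, n = 5). The ligand gene of this pair, Lif, was thus low in both groups where both chains were higher.

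Beta chain genes of the CSF2 and IL-3 receptors also rose. Csf2rb2, which in the mouse encodes a beta chain specific to the IL-3 receptor, had values of 6.26, 6.60, 6.49, 6.50 and 6.51 in the Gata4 samples and 4.23, 4.53, 4.42, 4.34 and 4.25 in the empty-vector samples, a rise of 4.34-fold. Csf2rb, which encodes the common beta chain of the CSF2, IL-3 and IL-5 receptors, stood at 5.76, 4.61, 6.18, 6.60 and 5.86 against 3.92, 3.69, 3.62, 3.09 and 3.22. For Csf2rb the Gata4 samples were spread over almost 2 log2 units, with replicate 2 the lowest, and its change was 2.29 ± 0.30 (SE, limma, adjusted p = 7.4e-05). The products of these genes are closely similar, so short probes may not separate them and the split of the signal between them is uncertain. Csf2ra, the ligand-specific alpha chain, rose by 0.24 ± 0.07 (SE, limma, adjusted p = 0.017), but not without empty-vector replicates 1 and 2 (log2 change 0.19, adjusted p = 0.11). Csf3r, the receptor of CSF3, had means of 3.50 and 3.45 and did not pass (adjusted p = 0.59).

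Signalling genes downstream of the receptors changed in both directions. Of 19 adaptors and regulators used by MET and KIT, 10 were lower and 2 higher (63.2% called, median -0.17). Of all genes 25.6% were called, 13.2% as lower. The mean level of this list in the empty-vector samples was 8.378 to 8.399, against a median value of 4.16. The share of all genes is thus not a like background for it. Inpp5d, which encodes the lipid phosphatase SHIP1, was 1.61-fold lower, the adaptor gene Shc1 1.44-fold lower and the ubiquitin ligase gene Cblb 1.40-fold lower. Cbl, a relative of Cblb, rose by 0.31 ± 0.06 (SE). Pik3cd, the gene of a PI3 kinase subunit, rose by 0.18 ± 0.06 (SE, limma, adjusted p = 0.036) at levels near 3 that may be background. Its call was lost when any of 7 single samples was left out (Gata4 replicates 1, 3, 4 and 5 and empty-vector replicates 2, 4 and 5), with adjusted p between 0.054 and 0.080, and the count of higher genes was then 1 in 5 of these 7 cases. In the other 2 cases Src, a kinase gene named after its values were seen, was called higher in its place.

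Of 17 JAK-STAT genes, which carry signals of the CSF2, CSF3 and LIF receptors, 7 were higher and 1 lower (47.1% called, median 0.10). Of all genes 25.6% were called, and the mean level of this list in the empty-vector samples was 7.30 to 7.37. Jak2, the kinase gene of the CSF2 receptor pathway, rose 1.53-fold from 9.29 ± 0.03 to 9.91 ± 0.10 (SD, n = 5). Cish, a feedback inhibitor gene, rose 1.71-fold, with 6.46 to 7.03 in the Gata4 samples and 5.63 to 6.26 in the empty-vector samples. Stat5a rose 1.59-fold, and its empty-vector samples were spread from 4.90 to 5.87. The feedback inhibitor gene Socs3 fell by 0.29 ± 0.07 (SE, limma, adjusted p = 0.0078). Most genes of both lists moved by less than 1.5-fold: with that minimum 0 adaptors were higher and 1 lower, and 3 JAK-STAT genes were higher and 0 lower.

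**Figure D3:**
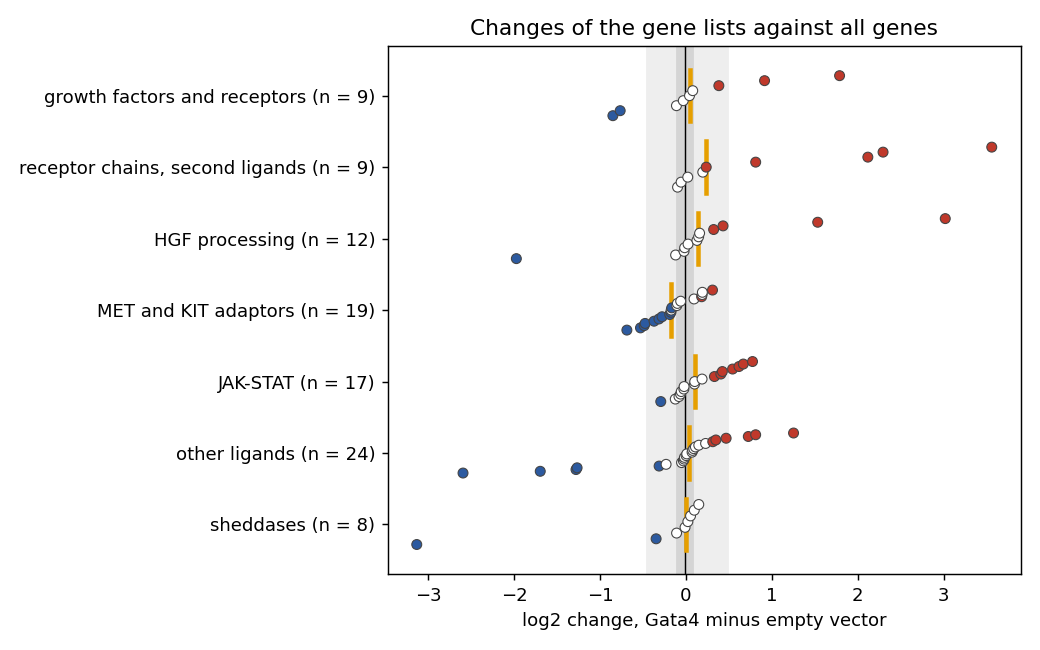
Log2 change (Gata4 minus empty vector) of each gene in 7 lists, 1 point per gene, red where called higher, blue where called lower and white where not called, with the list's median as an orange bar. The dark band spans the interquartile range of all 23111 genes and the light band their 5th to 95th percentile; most adaptor and JAK-STAT genes lie in or near the light band, while Lifr, Plat, Adam8 and Cxcl12 lie far outside it.

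Other ligand genes for blood cells, hepatocytes and epithelia split evenly. Of 24 measured, 6 were higher and 5 lower (45.8% called, against 25.6% of all genes, median 0.04). Il15, a growth factor gene for lymphocytes, rose 2.38-fold, from 6.77 ± 0.16 to 8.02 ± 0.11 (SD, n = 5). Il6 rose 1.76-fold from a mean of 3.48 that may be background, and Nrg1, the neuregulin 1 gene, rose 1.66-fold from 11.21 ± 0.08 to 11.93 ± 0.07. The largest falls were those of Cxcl12, whose product holds blood stem cells in their niche (6.04-fold), Ereg, which encodes the EGF receptor ligand epiregulin (3.24-fold), and Clcf1, a cytokine gene of the IL-6 family (2.43-fold).

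The genes whose 10 values were most like those of Hgf, each taken relative to its own empty-vector mean, were Npl, Psen2 and St3gal5. Their root mean square differences from Hgf were 0.11, 0.14 and 0.15 log2 units over the 10 samples, and their changes were 1.81, 1.76 and 1.88. For Met they were Ankrd50, Col5a1 and Slc2a1, with differences of 0.08 log2 units each and changes of -0.85, -0.88 and -0.79. With 2 groups of 5, this measure is driven by the size of the difference between the groups.

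The mean of the Gata4 feature itself was 5.08 in the Gata4 samples and 4.75 in the empty-vector samples (limma, adjusted p = 0.017), and its probes need not detect the codon-optimized transgene. The arrays of a group correlated at 0.9964 or above and those of different groups at 0.9863 or below. Empty-vector replicates 1 and 2 lay apart from replicates 3 to 5 on the second principal component, which held 5.26% of the variance. Without that pair, the changes of the called genes were 1.79 for Hgf, -0.75 for Met, -0.81 for Kitl, 0.38 for Csf1 and 0.79 for Flt3l. The cells expressed endothelial markers at a high level in both groups, with Pecam1 at 12.97 ± 0.06 and 12.85 ± 0.02 and Cdh5 at 13.83 ± 0.05 and 13.58 ± 0.07 (SD, n = 5) in the empty-vector and Gata4 samples. Of 12 endothelial markers 3 were higher and 5 lower (66.7% called, against 25.6% of all genes). Among the lower were Kdr (2.26-fold), Cldn5 (2.06-fold), Esam (1.62-fold) and Cdh5 itself (1.19-fold), and Tek rose 2.89-fold. Of 6 hepatocyte markers 0 were called by limma, by the exact rank-sum test or at an unadjusted p under 0.05, and the mean of their levels was 3.12 to 3.26 in the empty-vector samples and 3.14 to 3.25 in the Gata4 samples. Of 7 markers of mast cells, which carry KIT, 1 was higher and 1 lower (28.6% called, near the 25.6% of all genes). Their mean levels were 2.95 to 3.11 in the empty-vector samples and 2.92 to 3.08 in the Gata4 samples. Of 7 blood cell markers 1 was higher and 1 lower (28.6% called, also near the share of all genes). The summed level of the blood markers was 8.64 to 8.87 on the log2 scale in the empty-vector samples and 7.60 to 7.92 in the Gata4 samples, which follows Cd68, a lysosomal gene not limited to blood cells, at 8.53 and 7.30. Ptprc, which marks nearly all white blood cells, was at 2.90 and 2.78. Of 9 stromal markers 2 were higher and 1 lower (33.3% called, against 25.6% of all genes). Their mean levels were 3.56 to 3.74 in the empty-vector samples and 3.54 to 3.68 in the Gata4 samples. No value was at 0 in the table, and the part of these markers in the results was not tested.

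**Figure D4:**
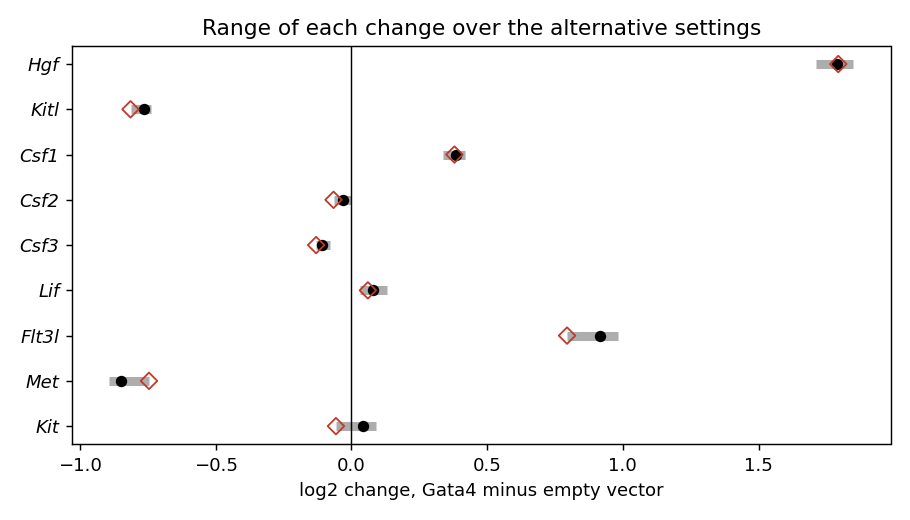
Log2 change (Gata4 minus empty vector) of each of the 9 genes in the reported fit (black points), its range over the alternative settings that gave a value (grey bars) and its value without empty-vector replicates 1 and 2 (open red diamonds). The bars of Hgf, Kitl, Csf1, Flt3l and Met stay on one side of 0. So do those of Csf2, Csf3 and Lif, which were not called, whereas that of Kit crosses 0.

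The 5 calls were made in each of the 21 alternative settings that gave single-gene values, among them each sample left out in turn. The change of Hgf ranged from 1.71 to 1.85, that of Met from -0.89 to -0.75, that of Kitl from -0.81 to -0.74, that of Csf1 from 0.34 to 0.42 and that of Flt3l from 0.79 to 0.98. The highest adjusted p among these settings was 0.038, in the exact rank-sum test, where it is bounded by the number of samples. Of Kit, Csf2, Csf3 and Lif, 0 were called in the settings in which they were measured, with adjusted p from 0.11 upward.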

How the data were processed

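Biotin-labelled RNA of 10 bEnd3 samples, 5 Gata4 and 5 empty vector, was hybridised to Affymetrix arrays. The authors' deposited values are log2 intensities from RMA, per the submitters' processing notes (version and probe annotation not given in the sources used here). RMA corrects background, makes the arrays share one distribution and summarises probes, so each change is relative to all other genes and a shift of all genes would be hidden. Values ran from 2.37 to 13.9, and the number of arrays limits the precision. Of 23748 features 23111 had 1 symbol in the platform annotation, each a different gene.

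Groups came from the sample titles. Means were compared with limma 3.58.1 in R 4.3.3 (lmFit, eBayes without trend) over all 23111 genes, two-sided, adjusted by Benjamini-Hochberg, at a threshold of 0.05. The fit was also run on simulated data, drawn independently for each gene with the same spread in both groups. That run checks the code and does not bear on the calls made here. Every adjusted p in the text is from limma unless an exact test is named. The genes and the gene lists were chosen with earlier results of these data known. Named genes were all 9 measured genes, all receptor chains, up to 3 called rises and 3 called falls per other list, and the 3 genes most like the largest rise and fall. Genes named outside this rule (Hgfac, Mmp14, Src, Gata4, the genes beside the measured ones and the cell type markers) were chosen after their values were seen or for their position. Alternatives changed the moderation, test, pairing, normalization, filter on dim genes, fold minimum or samples.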

Additional observations from a re-analysis of the deposited data

Results flagged for a closer look

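None of the 9 growth factor and receptor genes had a sample that stood apart from its group of 5 by Dixon's test. Over all list genes and markers, 17 of 274 groups had such a sample (6.20%), where chance gives about 1 in 20. Apart from Emcn, the groups given here are the 10 of genes named in the results above. For Cdh5, empty-vector replicate 3 (13.73) met the criterion because the other 4 samples share the value 13.86, a tie near the top of the scale, so this does not show an outlying sample. The same holds for the endothelial marker gene Emcn, where empty-vector replicate 3 (12.41) differed from 4 samples that share the value 12.50. Both ties are counted in the 17. Empty-vector replicate 3 stood apart for Il6 (3.29) and St14 (3.88), empty-vector replicate 2 for Jak2 (9.35) and Socs3 (6.72), and empty-vector replicate 5 for Flt3 (3.83). Gata4 replicate 3 stood apart for Cbl (9.71) and Inpp5d (9.11), Gata4 replicate 4 for St14 (4.28) and Gata4 replicate 5 for Hgfac (4.53). For each of these genes other than Flt3 the groups did not overlap with these samples included.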

How the results depend on the processing

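The direction and the call of all 5 called genes held under each of the 21 alternatives with single-gene values. Counts of called genes over the array held within 1.5 times except with a minimum of 1.5-fold, where 930 genes were higher and 778 lower. That minimum, which by construction counts fewer genes, left 2 HGF-processing genes, 3 JAK-STAT genes and 3 other ligand genes as higher. It left 0 adaptor genes as higher and 1 as lower, 0 JAK-STAT genes as lower and 1 protease gene as lower. JAK-STAT genes called lower numbered 2 with an intensity trend, with a robust trend, with the exact rank-sum test and among genes above the median level. Adaptor genes called higher numbered 1 with the replicate block, and 1 to 2 when single samples were left out. Those called lower numbered 8 with the replicate block, 8 without empty-vector replicates 1 and 2, and 9 with the exact rank-sum test. Leaving single samples out gave 8 to 10. JAK-STAT genes called higher numbered 6 with the exact rank-sum test and 6 to 7 when single samples were left out. Release protease genes called higher numbered 1 with cyclic loess and among genes above the median level, and 0 to 1 when single samples were left out. Of 89 list genes 7 lost and 8 gained a call under some setting; the cause was not tested.

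The groups share replicate numbers 1 to 5. Deviations of same-numbered samples correlated between -0.02 and 0.09, so the numbers were not taken as pairs. With the replicate block 2721 genes were higher and 2923 lower, and Gata4 replicates 2, 4 and 5 correlated best with the empty-vector sample of their own number. Among the 9 genes the block changed no call (Hgf, adjusted p = 1.3e-06; Csf1, 0.0054). Low signal limits Csf2, Csf3, Lif, Flt3, Csf3r, Il34 and Csf1r, for which the table gives no detection call.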

Other observations

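Of the 15 measured genes that lie directly beside the 9 genes in the RefSeq gene order, 1 was higher, 5 were lower and 9 did not pass (limma), where 25.6% of all genes were called. Besides Pdgfra and Kdr at Kit, the lower neighbours were Cav1, the caveolin 1 gene beside Met, which fell by 0.28 ± 0.04 (SE), P4ha2, a collagen prolyl hydroxylase gene beside Csf2, which fell by 0.60 ± 0.08 (SE), and Psmd3, a proteasome subunit gene beside Csf3, which fell by 0.20 ± 0.05 (SE). Ahcyl1, beside Csf1, rose by 0.74 ± 0.05 (SE). The neighbours that did not pass were Eps8l3, Il3, Med24, Aldh16a1, Cacna2d1, Osm, Hormad2, Capza2 and Csl, with log2 changes from -0.08 (Csl) to 0.20 (Aldh16a1).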
